A study of Mus musculus with 4 samples.

Results

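The 8 genes described here encode the subunits of the heterotetrameric adaptor complexes AP-4 (Ap4b1, Ap4e1, Ap4m1 and Ap4s1) and AP-3 (Ap3b1, Ap3d1, Ap3m1 and Ap3s1), and they were taken by symbol from a count table of 27179 genes measured by RNA-Seq. They were chosen on values of the comparison described below: Ap4b1 was picked because its counts were lower with deoxycholic acid (DCA), and the other subunits were added to place it in its complex. Their levels and differences between treatments are therefore given as a description, with no test. All 8 genes passed the filter on low counts, a mean of at least 1 CPM (counts scaled to library size).

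The study asked how DCA, a secondary bile acid made by gut bacteria, acts on group 2 innate lymphoid cells (ILC2s), tissue-resident lymphocytes that make IL-5 and IL-13. ILC2s were sorted from the large intestine of wild-type C57BL/6 mice and expanded for 5 days with the cytokines IL-33, IL-25, IL-7 and IL-2. They were left without DCA (2 libraries, labelled Ctrl and called vehicle here) or given DCA (2 libraries). The dose was 100 μM by the study's methods, and the treatment time was 16 hours by the design text and 24 hours by the methods. Nothing states that the 2 libraries of a treatment came from separate cultures or animals, so the spread between them may be technical.

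Adaptor complexes collect membrane proteins into transport vesicles by reading short sorting signals in their tails. Each complex holds a pair of large subunits, a medium subunit (μ) that reads tyrosine-based signals and a small subunit (σ) that stabilizes the core. AP-4, made of ε (Ap4e1), β4 (Ap4b1), μ4 (Ap4m1) and σ4 (Ap4s1), works at the trans-Golgi network without clathrin, where it packages the autophagy protein ATG9A and the SERINC proteins for transport to the cell periphery, and loss of any of its subunits causes a hereditary spastic paraplegia. AP-3, made of δ (Ap3d1), β3A (Ap3b1), μ3A (Ap3m1) and σ3A (Ap3s1), sends cargo from endosomes to lysosomes and lysosome-related organelles, and loss of its β3A subunit causes a form of Hermansky-Pudlak syndrome with defective platelet and pigment granules and neutropenia.

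The libraries held 35838342 and 26564059 counts (vehicle replicates 1 and 2) and 32102232 and 244165712 counts (DCA replicates 1 and 2), so that DCA replicate 2 held far more counts than the rest. A count of 3 was worth between 0.0125 and 0.115 CPM, well under the lowest value of any of the 8 genes, 4.90 CPM. All 10 ILC2 markers were at 1 CPM or more, and their sum, mostly Il5, was 14658 to 15978 CPM with vehicle and 17021 to 19640 CPM with DCA. Il1rl1 (831.8 and 876.1 CPM, then 598.0 and 532.8) and Klrg1 (687.5 and 677.7 CPM, then 462.8 and 356.0) were lower with DCA. Both were lower in each DCA library, as Ap4b1 was. Il7r (373.4 and 350.2 CPM, then 582.2 and 461.0) and Il2ra (1073.9 and 1229.8 CPM, then 1613.0 and 1583.5) were higher in both. Il5 (8858 and 7719 CPM, then 9953 and 12321) was also higher in both. The other ILC2 markers overlapped between treatments. The part of these markers in the level of Ap4b1 was not tested. T cell markers summed to 14.5 to 25.6 CPM with vehicle and 11.2 to 21.6 CPM with DCA, mostly Cd3g, and Cd4 and Cd8a were at 0. B cell markers summed to 47.2 to 55.1 CPM and 37.7 to 44.5 CPM, nearly all Cd79b, with Pax5 at 0. Epithelial, mast cell and basophil, and ILC3 markers summed to at most 13.5 CPM in any library. In bulk RNA, fewer cells of a type and less RNA per cell cannot be told apart.

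Among the 8 genes, 6 have a gene that starts on the opposite strand within 1000 bases of their own start in the GENCODE annotation of GRCm38, against 26.5% (2733 of 10327) of the protein-coding genes tested. Such head-to-head pairs share the DNA between their starts. The promoter windows of 3 of them are shown because their expression is set beside that of the partner below. Each is the RefSeq sequence on GRCm38.p6, 5′ to 3′ on the strand of the adaptor gene, with the start of the adaptor gene at position 251 of the window, and capitals mark the stretch from the partner's start to the adaptor gene's start. Ap4b1 is at chr3:103809267-103809566 on the plus strand, with Dclre1b starting 130 bases away, Ap4m1 is at chr5:138171771-138172070 on the plus strand, with Mcm7 starting 138 bases away, and Ap3m1 is at chr14:21052393-21052692 on the minus strand, with Adk starting 132 bases away.
Ap4b1: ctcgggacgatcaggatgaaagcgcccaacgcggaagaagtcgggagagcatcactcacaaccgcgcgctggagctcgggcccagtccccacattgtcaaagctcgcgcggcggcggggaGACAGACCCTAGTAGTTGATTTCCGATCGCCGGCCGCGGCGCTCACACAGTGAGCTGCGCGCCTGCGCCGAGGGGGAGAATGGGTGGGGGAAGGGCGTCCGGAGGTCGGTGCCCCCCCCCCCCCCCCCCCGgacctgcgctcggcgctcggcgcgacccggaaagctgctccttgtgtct
Ap4m1: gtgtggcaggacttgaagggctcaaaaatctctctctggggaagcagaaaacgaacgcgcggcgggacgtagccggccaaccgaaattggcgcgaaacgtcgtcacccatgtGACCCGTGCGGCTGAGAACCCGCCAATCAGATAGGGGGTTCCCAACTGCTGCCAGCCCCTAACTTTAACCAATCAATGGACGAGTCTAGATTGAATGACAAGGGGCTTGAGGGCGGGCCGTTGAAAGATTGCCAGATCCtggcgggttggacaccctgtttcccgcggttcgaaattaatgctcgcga
Ap3m1: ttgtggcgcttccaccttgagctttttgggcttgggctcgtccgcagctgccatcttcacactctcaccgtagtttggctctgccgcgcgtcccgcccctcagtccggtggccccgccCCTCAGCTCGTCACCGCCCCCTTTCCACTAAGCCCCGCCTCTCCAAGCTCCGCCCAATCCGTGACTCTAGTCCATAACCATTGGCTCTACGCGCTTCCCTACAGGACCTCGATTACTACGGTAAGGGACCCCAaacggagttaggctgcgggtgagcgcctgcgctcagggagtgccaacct
The Ap4b1 window was the richest of the 3 in G and C, at 69.7%, against 62.7% for Ap3m1 and 56.7% for Ap4m1, and its shared stretch ends in a run of C bases at the Ap4b1 start.

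Of 6 promoter motifs searched on both strands, none was found in the Ap4b1 window. Windows of 7 of the 8 genes, all but Ap3s1, were searched, and the shares in brackets are those of all 32851 RefSeq windows of the same length. The CCAAT box (CCAAT, 37.4%) was in Ap4m1, Ap3d1 and Ap3m1. The GC box (GGGCGG, 35.7%) was in Ap4m1, Ap3b1 and Ap3m1. An ETS site (CCGGAAG, 8.86%) was in Ap4e1, Ap3b1 and Ap3d1. The site of the stress factor ATF4 (TGATGCAA, 0.895%) was in Ap4s1, and neither the E-box (CACGTG, 7.15%) nor the CRE (TGACGTCA, 1.79%) was in any of the 7. These matches are descriptions of letters in the windows.

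Ap4b1, the β4 subunit that recruits the accessory protein tepsin, was the AP-4 subunit that differed between treatments beyond the spread of its libraries. It stood at 108.5 CPM (3972 counts) and 81.4 CPM (2132 counts) in the vehicle libraries, against 35.9 CPM (1160 counts) and 28.4 CPM (6831 counts) in the DCA libraries. Both DCA libraries lay below both vehicle libraries, and the lowest vehicle value was 2.27 times the highest DCA value. The means were 95.0 ± 19.2 CPM and 32.1 ± 5.29 CPM (SD, n = 2 each), 2.96-fold lower with DCA, a log2 fold change of -1.56 ± 0.26 (SE). Of the 11184 genes tested, 4.18% had a log2 fold change as low or lower.

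Markers of macrophages and monocytes were lower in the same libraries. Their 5 genes summed to 24.6 and 23.97 CPM in the vehicle libraries and to 7.30 and 10.2 CPM in the DCA libraries. Nearly all of that was Cd68, a lysosomal protein, with Csf1r at 0 in all 4 libraries and Adgre1, Itgam and Lyz2 below 1 CPM. Per the methods, ILC2s were sorted as lineage-negative, CD127+ and KLRG1+ cells, with CD11b and CD11c in the lineage mix. The part of macrophages and monocytes in the level of Ap4b1 was not tested.

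Ap4m1, the μ4 subunit that binds the sorting signal of AP-4 cargo, was the least abundant of the 8. Its values were 17.7 and 8.67 CPM in the vehicle libraries against 9.43 and 4.90 CPM in the DCA libraries. The mean was lower with DCA by a log2 fold change of -0.88 ± 0.63, but DCA replicate 1 lay above vehicle replicate 2, so the treatments overlapped.

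Ap4e1, the large ε subunit of AP-4, had 28.2 and 9.01 CPM in the vehicle libraries against 24.1 and 15.4 CPM in the DCA libraries. Both DCA values fell between the vehicle values, and the log2 fold change was 0.09 ± 0.83. Ap4s1, the small σ4 subunit, had 52.3 and 24.4 CPM in the vehicle libraries against 43.4 and 34.7 CPM in the DCA libraries. Its DCA values also lay inside the vehicle range, with a log2 fold change of 0.02 ± 0.56.

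The vehicle libraries differed most for these 3 genes. Vehicle replicate 1 was 3.13 times vehicle replicate 2 for Ap4e1, 2.14 times for Ap4s1 and 2.04 times for Ap4m1, against 1.33 times for Ap4b1. DCA replicate 1 was 1.56, 1.25, 1.93 and 1.26 times DCA replicate 2 for Ap4e1, Ap4s1, Ap4m1 and Ap4b1, so the spread of Ap4m1 was about as wide in both treatments. All 4 AP-4 genes were higher in replicate 1 than in replicate 2 within each treatment. With an SE of 0.83 for Ap4e1 and of 0.56 for Ap4s1, equal levels in the treatments were not shown.

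AP-3 genes varied less. Ap3d1, the δ subunit on whose presence the whole AP-3 complex depends, had 62.3 and 64.4 CPM in the vehicle libraries against 45.0 and 60.8 CPM in the DCA libraries. Both DCA values were below the vehicle values, the nearer by a narrow margin, and the log2 fold change was -0.26 ± 0.21. Ap3b1, the β3A subunit, had 70.6 and 49.1 CPM in the vehicle libraries against 55.1 and 52.7 CPM in the DCA libraries. Its DCA values lay inside the vehicle range (log2 fold change -0.15 ± 0.26).

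Ap3m1, the μ3A subunit and the most abundant of the 8 by CPM, had 107.5 and 147.8 CPM in the vehicle libraries against 127.1 and 120.2 CPM in the DCA libraries. Its DCA values again lay inside the vehicle range (log2 fold change -0.05 ± 0.23). Ap3s1, the σ3A subunit, had 24.7 and 27.3 CPM in the vehicle libraries against 21.4 and 26.9 CPM in the DCA libraries. The treatments overlapped, and the log2 fold change was -0.11 ± 0.17.

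**Figure D1:**
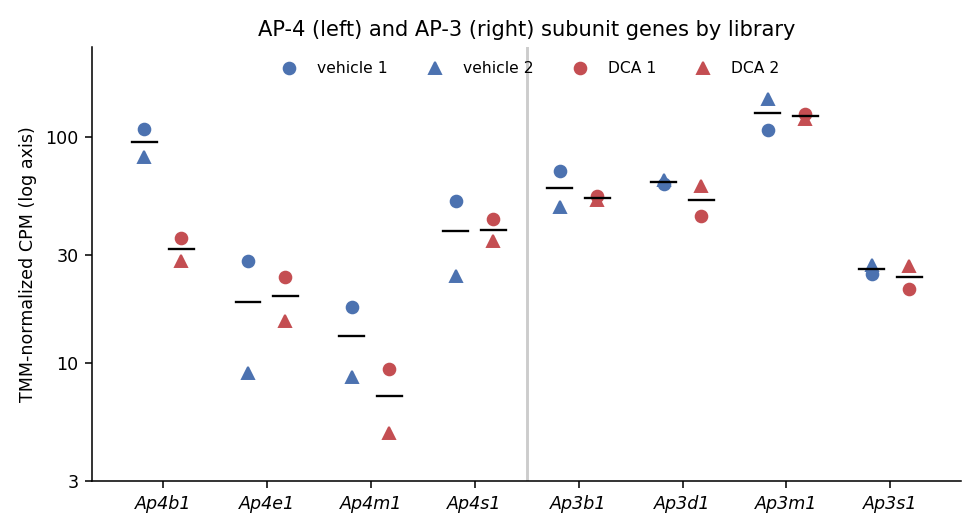
TMM-normalized CPM (log axis) of the 4 AP-4 genes (left) and 4 AP-3 genes (right), with circles for replicate 1, triangles for replicate 2 and bars for the mean of each treatment. Ap4b1 shows a wide gap between vehicle (81.4 and 108.5 CPM) and DCA (28.4 and 35.9 CPM), while the spread between vehicle libraries is widest for Ap4e1.

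Across the 8 genes, 2 had both DCA libraries on 1 side of both vehicle libraries, Ap4b1 and Ap3d1, against 33.3% of all genes tested. Both were lower with DCA, a pattern seen in 14.7% of all genes tested. An adjusted p under 0.05 was reached by 0 of the 8 (edgeR quasi-likelihood test, Benjamini-Hochberg), where 0 of the 11184 genes did (0%), and 1 of the 8, Ap4b1, had an unadjusted p under 0.05, against 478 genes or 4.27% of all tested. The same gene, and so 1 of the 8, passed an adjusted p of 0.05 in some alternative fits. It did so in edgeR with no filter on low counts, against 0.203% of 17706 genes. It also did so in DESeq2 with no such filter, against 1.82% of 13586 genes given an adjusted p. In DESeq2 on the genes of the main comparison, a fit added after the data were seen, it passed as well, against 1.17% of 10967. In the other alternatives with 4 libraries, 0 of the 8 passed. Ap4b1 was chosen because it was lower in this comparison, so nothing is read from its calls in any of these fits. The median log2 fold change was -0.43 over the AP-4 genes and -0.13 over the AP-3 genes, against 0.008 over all genes tested. The AP-4 median rests on single libraries: it was 0.17 without vehicle replicate 1, -0.91 without vehicle replicate 2, and -0.85 and -0.15 when the first or the second DCA library was left out. The AP-3 median stayed below 0, from -0.24 to -0.08, with any 1 library left out. The median SD between libraries of a treatment, on the log2 scale, was 0.59 for AP-4 and 0.22 for AP-3, with 0.43 for all genes tested.

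**Figure D2:**
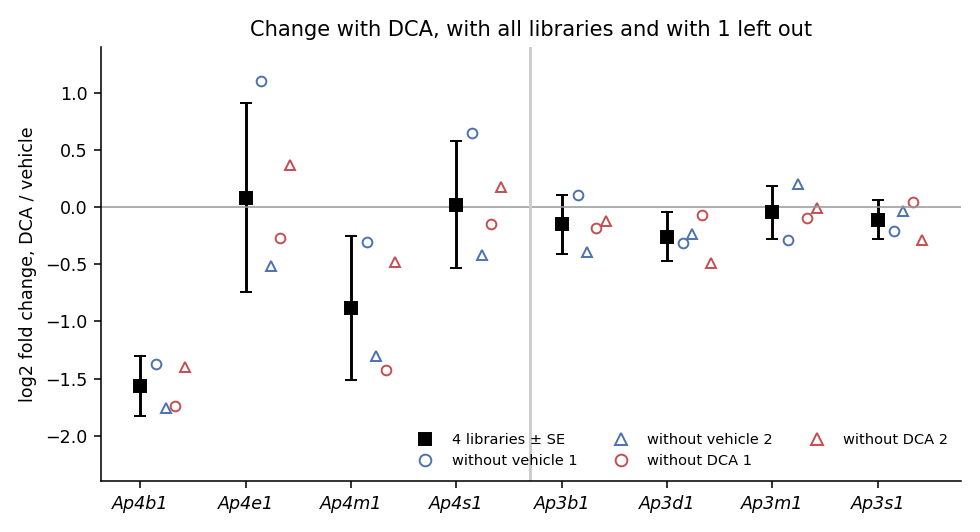
Log2 fold change of each gene, DCA over vehicle, as squares with the SE from the 4 libraries and, beside them, open symbols for the value with 1 library left out. Ap4b1 stays between -1.76 and -1.37, and Ap4e1 runs from -0.51 to 1.10, with the vehicle libraries giving both ends.

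Leaving out 1 library at a time kept Ap4b1 between -1.76 and -1.37 on the log2 scale and Ap4m1 between -1.43 and -0.30, both on the lower side. Ap4e1 was at -0.51 when vehicle replicate 2 was left out and at 1.10 when vehicle replicate 1 was, and Ap4s1 at -0.42 and 0.65 in the same order. Ap3d1 stayed below 0, from -0.49 to -0.07, while Ap3b1, Ap3m1 and Ap3s1 each changed sign with 1 of the 4 libraries left out.

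To compare subunits with each other, CPM was divided by transcript length. The 4 AP-3 subunits, which enter the complex in equal numbers, lay close together: means over the 4 libraries were 18.7 CPM per kb for Ap3m1, 16.5 for Ap3s1, 14.1 for Ap3b1 and 12.1 for Ap3d1. AP-4 subunits, which also enter in equal numbers, spread widely, at 37.4 CPM per kb for Ap4s1, 22.7 for Ap4b1, 4.17 for Ap4e1 and 2.92 for Ap4m1. The level of Ap3s1 rests on the choice of transcript, and was 25.7 CPM per kb by its shorter one. RefSeq also lists pseudogenes of Ap3s1 and Ap3m1 that have no row among the counts. How reads shared with these copies were counted is not known.

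With vehicle, the order per kb was Ap4s1 (37.1 ± 19.1), Ap4b1 (33.9 ± 6.86), Ap3m1 (19.0 ± 4.23), Ap3s1 (17.1 ± 1.21), Ap3b1 (14.9 ± 3.79), Ap3d1 (13.2 ± 0.314), Ap4e1 (4.04 ± 2.95) and Ap4m1 (3.79 ± 1.84), in CPM per kb with SD. Neighbours in that order overlapped between libraries except at 2 steps, from Ap4b1 down to Ap3m1 and from Ap3d1 down to Ap4e1. With DCA, Ap4b1 (11.5 ± 1.89 CPM per kb) followed Ap4s1 (37.7 ± 5.89), Ap3m1 (18.4 ± 0.722), Ap3s1 (15.9 ± 2.58) and Ap3b1 (13.4 ± 0.427), and overlapped with Ap3d1 (11.0 ± 2.32). Ap4e1 (4.29 ± 1.33) and Ap4m1 (2.06 ± 0.921) were last again. All neighbours in the DCA order other than Ap4b1 and Ap3d1 were apart, with 2 libraries behind each value.

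Within AP-4, Ap4b1 made up 38.6% and 50.9% of the summed CPM per kb of the 4 subunits with vehicle and 20.5% and 20.9% with DCA. The share of Ap4s1 was 50.3% and 41.3% with vehicle and 66.9% and 69.2% with DCA, while its own level did not follow treatment. The ratio of Ap4b1 to Ap4s1 in CPM was 2.07 and 3.33 with vehicle and 0.827 and 0.817 with DCA. The order of these 2 subunits by CPM, which leaves out transcript length, was turned in both DCA libraries. Per kb, Ap4s1 was already above Ap4b1 in vehicle replicate 1 (50.6 against 38.8) and below it in vehicle replicate 2 (23.6 against 29.1). It was above Ap4b1 in both DCA libraries (41.9 against 12.8, and 33.6 against 10.1). The ratio of Ap4b1 to Ap4e1 was 3.85 and 9.03 with vehicle and 1.49 and 1.84 with DCA. Against Ap4m1 the ratio was 6.13 and 9.39 with vehicle and 3.803 and 5.79 with DCA. Ap4b1, chosen for being lower with DCA, is the numerator throughout, so nothing is read from the direction of these ratios. Within AP-3 every subunit held between 16.7% and 33.7% of the sum in every library, and the sum itself was 62.8 and 65.5 CPM per kb with vehicle and 56.0 and 61.3 with DCA.

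**Figure D3:**
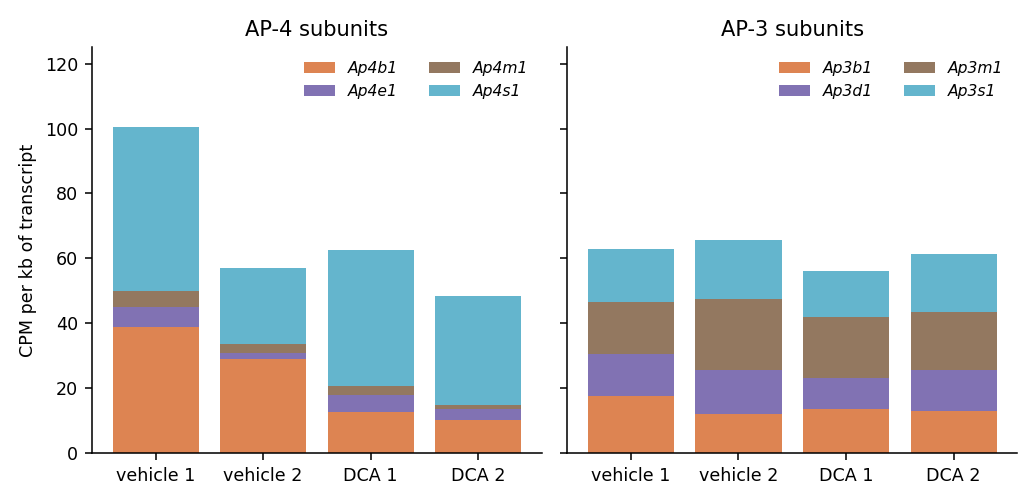
CPM per kb of transcript of the AP-4 (left) and AP-3 (right) subunit genes, stacked within each library so that the bar height is their sum. The Ap4b1 segment shrinks from 38.8 and 29.1 CPM per kb with vehicle to 12.8 and 10.1 with DCA, while each AP-3 segment holds 16.7% to 33.7% of its bar in all libraries.

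The partner that starts beside Ap4b1 did not share its pattern. Dclre1b, a nuclease that protects telomere ends, had 16.9 and 18.1 CPM in the vehicle libraries against 21.8 and 19.0 CPM in the DCA libraries, slightly higher in both DCA libraries. Its log2 fold change was 0.22 ± 0.10 (edgeR quasi-likelihood test, unadjusted p = 0.669, adjusted p = 0.999). The difference between the fold changes of the 2 genes was not tested. A further GENCODE gene model on the same strand, Gm43064, covers 12453 bases of Ap4b1 and was not analysed here, so reads of the 2 models cannot be told apart.

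**Figure D4:**
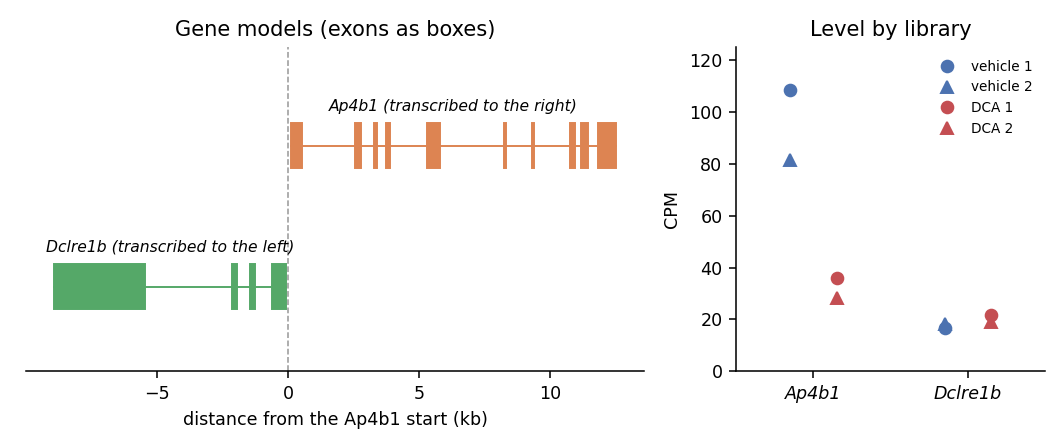
Left, exons of Ap4b1 and Dclre1b by distance (kb) from the outermost annotated start of Ap4b1, the 2 genes running away from each other; right, CPM of both genes in each library, with circles for replicate 1 and triangles for replicate 2. Dclre1b stays between 16.9 and 21.8 CPM, while Ap4b1 is at 81.4 CPM or more with vehicle and at 35.9 CPM or less with DCA.

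Several of the other subunit genes overlap neighbours on the opposite strand, and the counting strand is not given in the sources used here, so shared reads leave their values uncertain. Overlaps are those of the outermost GENCODE starts and ends, which lie elsewhere than the RefSeq starts of the windows printed above, where Ap4m1 and Mcm7 start apart. By GENCODE, Ap4m1 overlaps Mcm7, a subunit of the replicative helicase, by 421 bases and Taf6, a subunit of the general transcription factor TFIID, by 1813 bases. Mcm7 was at 329.0 to 405.1 CPM and Taf6 at 120.7 to 142.7 CPM in every library, both far above Ap4m1, with log2 fold changes of 0.01 and -0.02. Ap4s1 overlaps Strn3 by 865 bases, and Ap3m1 overlaps Vcl, which encodes vinculin, by 2235 bases, with Vcl at 7.604 CPM or less in every library. Adk, the adenosine kinase gene that starts beside Ap3m1, had 49.0 and 99.97 CPM in the vehicle libraries against 64.04 and 53.7 CPM in the DCA libraries. Atg12, an autophagy conjugation gene that starts beside Ap3s1, had 79.9 and 18.2 CPM in the vehicle libraries against 34.2 and 20.9 CPM in the DCA libraries. Its vehicle libraries differed more than those of any of the 8 adaptor genes. Gm9776, the noncoding RNA beside Ap3b1, was at 2.40 CPM or less.

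The 3 genes closest to Ap4b1 in pattern over the 4 libraries, by Euclidean distance in mean-centred log2(CPM + 1), were Zfp775 (distance 0.102), 4930518I15Rik (0.141) and Otud7b (0.169). Zfp775, a zinc finger gene, had 19.4 and 12.9 CPM in the vehicle libraries against 5.50 and 4.32 CPM in the DCA libraries. Otud7b, which encodes a deubiquitinase, had 33.3 and 25.6 CPM in the vehicle libraries against 11.7 and 9.71 CPM in the DCA libraries. All 3 were picked for this likeness among 11184 genes.

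AP-3 has second copies of some subunits. Ap3b2, which encodes the neuronal β3B subunit, had 0 and 2 counts in the vehicle libraries and 0 and 4 counts in the DCA libraries, so that nearly all β3 counts were those of Ap3b1. Ap3m2 was detected at 16.4 and 4.20 CPM in the vehicle libraries against 7.08 and 16.1 CPM in the DCA libraries, well below Ap3m1. Ap3s2 had 50.3 and 64.5 CPM in the vehicle libraries against 71.9 and 58.8 CPM in the DCA libraries. Per kb Ap3s2 was at 10.5 CPM against 16.5 for Ap3s1, so transcripts of both σ3 genes were present. Neither Ap3m2 (log2 fold change 0.17 ± 1.02) nor Ap3s2 (0.19 ± 0.23) separated the treatments.

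Genes of the other adaptor complexes and of the partners of AP-3 and AP-4 gave 60 tested genes of 64 listed. None had an adjusted p under 0.05 by the edgeR quasi-likelihood test, where 0 of all 11184 genes tested did. An unadjusted p under 0.05 was reached by 1 of the 60, against 4.27% of all genes tested. Of the 60, 36 had a log2 fold change above 0 and 24 below, with a median of 0.16. AP-1 subunits, which sort between the trans-Golgi network and endosomes, had a median of 0.18, with 5 of 8 above 0. AP-2 subunits, the adaptor of endocytosis at the plasma membrane, were above 0 in 5 of 5 with a median of 0.11, which was -0.01 without DCA replicate 1. AP-5 subunits and partners, which act on late endosomes, had a median of 0.37, with 4 of 6 above 0.

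The most abundant medium and small subunits of AP-1 and AP-2 stood above those of AP-4. The medium subunit of AP-2, Ap2m1, was at 222.3 CPM per kb and the main one of AP-1, Ap1m1, at 84.7, against 18.7 for Ap3m1, 3.05 for Ap5m1 and 2.92 for Ap4m1. Small subunits were at 160.3 CPM per kb for Ap2s1, 129.7 for Ap1s1, 37.4 for Ap4s1, 16.5 for Ap3s1 and 9.24 for Ap5s1. The other AP-1 copies were low, with Ap1m2 at 1.59 CPM per kb, below Ap4m1, and Ap1s2 at 3.66 and Ap1s3 at 0.441, below Ap4s1. Among large subunits, Ap1g1 was at 22.0 and 29.8 CPM with vehicle, lower than its 46.0 and 41.9 CPM with DCA, and did not pass the test (unadjusted p = 0.0928, adjusted p = 0.999, edgeR quasi-likelihood test).

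Of the AP-4 partners and cargo, 12 of 14 were tested, 6 above and 6 below 0, with a median log2 fold change of 0.06 that was -0.34 without DCA replicate 1. The range of level ran from Serinc3, a membrane protein carried by AP-4, at 279.6 CPM per kb to Fam160a2, a part of the complex that links vesicles to dynein, at 0.875. AP-3 cargo and recruiters had a median of -0.10 over 8 of 9 genes (-0.31 without DCA replicate 2 and -0.28 without vehicle replicate 1), and levels from Arf1, the GTPase that recruits AP-3 to membranes, at 417.4 CPM per kb to Agap1, which switches Arf1 off, at 0.312. Vamp7, a broadly expressed R-SNARE carried by AP-3, was listed at 0 in all 4 libraries, which is not read as absence of its transcript.

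The complexes that work with AP-3 in making lysosome-related organelles had medians of 0.29 (BLOC-1, 8 genes) and 0.40 (BLOC-2 and BLOC-3, 5 genes). Without DCA replicate 1 these were 0.02 and -0.14, and without vehicle replicate 1 they were 0.13 and 1.41. Their levels ran from 130.3 CPM per kb for Bloc1s1 to 1.52 for Bloc1s5, and from 11.6 for Hps1 to 3.05 for Hps4. HOPS, which tethers vesicles to the lysosome, had a median of 0.14 over 6 genes, which was -0.09 without DCA replicate 1 and -0.07 without vehicle replicate 2. Its levels ran from 31.4 CPM per kb for Vps41, the subunit that binds AP-3, to 1.98 for Vps18. The single gene of all these lists with an unadjusted p under 0.05 was Vps39 of HOPS, which had 12.1 and 18.2 CPM in the vehicle libraries against 60.0 and 35.7 CPM in the DCA libraries. Its log2 fold change was 1.65 ± 0.46 (edgeR quasi-likelihood test, unadjusted p = 0.0120, adjusted p = 0.999), so it did not pass the test. Of all genes tested, 4.27% had an unadjusted p under 0.05.

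**Figure D5:**
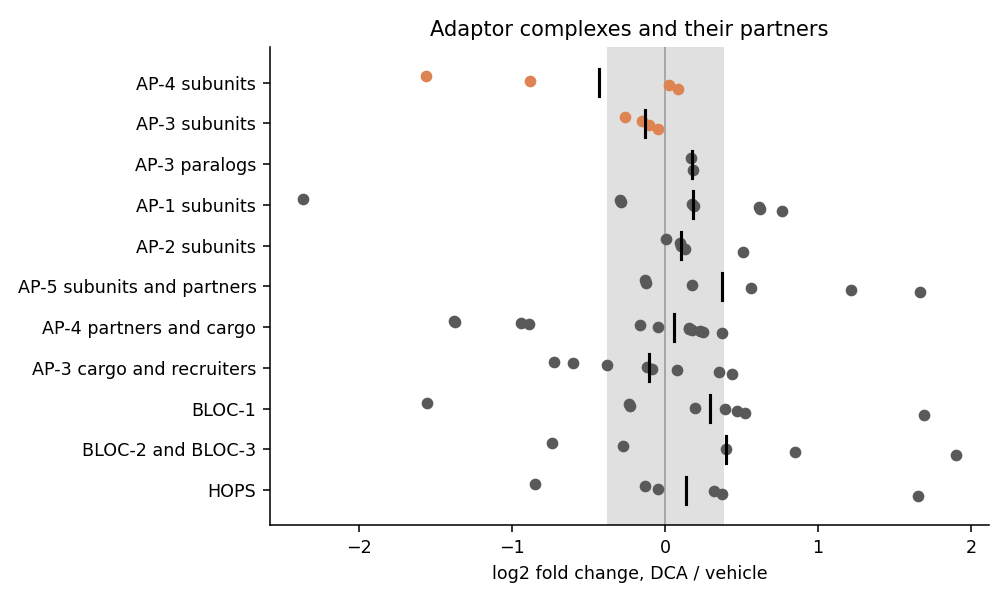
Log2 fold change, DCA over vehicle, of each tested gene by complex or partner list, with the AP-4 and AP-3 subunits in orange, black ticks for list medians and grey shading for the middle 50% of all genes tested (-0.37 to 0.38). The 4 AP-3 subunits lie inside the shading, and Ap4b1 and Ap4m1 lie outside it on the lower side.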

How the data were processed

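RNA-Seq was done on ILC2s, with 2 vehicle and 2 DCA libraries (full-length cDNA kit and transposase libraries, paired-end reads). Per the labels and the methods, trimming by the authors used cutadapt 1.9 and alignment to mm10 used HISAT2 2.2.1. The deposited values were raw counts of reads per gene. The counting tool and its strand setting are not given in the sources used here. Libraries were assigned to treatments by their labels.

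Counts were scaled by TMM and tested in edgeR 4.0.16 (R 4.3.3, quasi-likelihood, two-sided) over 11184 genes whose mean reached 1 CPM, with Benjamini-Hochberg adjustment. An SE is that of the difference of means of log2(CPM + 1). DESeq2 1.42.0, limma 3.58.1, other scalings and filters, a replicate block, thinning of DCA replicate 2 and leaving out each library were alternatives. Scripts were tested on simulated data. Transcript lengths came from GENCODE M21 and promoter windows from RefSeq. Rows with no gene symbol (1275, 0.137% to 0.173% of counts) were kept.

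The 8 genes and the lists were chosen with earlier results of these data known. Eligible to be named were the 8 genes, all other adaptor subunits, neighbours within 1000 bases, the 3 genes most like Ap4b1, and of each partner list the genes with an unadjusted p under 0.05 and those highest and lowest per kb. A neighbour and a marker are not reported here.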

Additional observations from a re-analysis of the deposited data

How the results depend on the processing

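Calls at an adjusted p under 0.05 numbered 0 with edgeR, and this depended on the processing: there were 36 with no filter on low counts, 247 with DESeq2 (no filter on CPM), 128 with DESeq2 on the genes of the main comparison (added after the data were seen), and from 0 to 20 with 1 library left out, the 20 without vehicle replicate 1. Ap4b1 had a log2 fold change of -1.59 to -1.53 over the 9 alternatives with 4 libraries. Ap4s1 turned from 0.02 to -0.00074 with DESeq2 and no filter, and none of the other 7 genes changed sign under those alternatives. The study names no block, and whether libraries with the same replicate number belong together is not known (same-number correlation 0.0197). The edgeR fit with the replicate block called 0 genes and had 450 at an unadjusted p under 0.05. It gave 0.27 for Ap4e1 and -1.56 for Ap4b1. With 1 library left out, list medians ranged from -0.91 to 0.17 (AP-4), -0.24 to -0.08 (AP-3), -0.11 to 0.71 (AP-3 paralogs), 0.07 to 0.30 (AP-1), -0.01 to 0.21 (AP-2), 0.26 to 0.57 (AP-5), -0.34 to 0.10 (AP-4 partners), -0.31 to -0.08 (AP-3 cargo), 0.02 to 0.13 (BLOC-1), -0.14 to 1.41 (BLOC-2 and BLOC-3) and -0.09 to 0.32 (HOPS). With 2 libraries a treatment, a left-out library leaves 1 that is assumed to vary like the other treatment's, and small differences cannot be resolved.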
